A study of Mus musculus with 10 samples.

Results

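In the developing mouse retina, 96 circular RNAs (circRNAs) were a larger share of all circRNA counts around birth than at postnatal days 14 and 30 (P14 and P30), yet were still listed in at least 1 library of those later ages. They were chosen by measured values, out of 9029 circRNAs in the table. A circRNA was a member when its estimated counts summed to 40 or more over 10 libraries, when it stood at 0 in at least 1 library and above 0 in at least 1 P14 or P30 library, and when its perinatal mean was at least 2 times its late mean. Perinatal stands here for the 4 libraries of embryonic day 18.5 (E18.5) and postnatal day 1 (P1), late for the 4 libraries of P14 and P30, and means were taken in CPM, that is, counts scaled to a library total of 1000000. Of the 9029 circRNAs, 6365 were above 0 in at least 1 library, 587 reached the floor of 40 counts, and 428 of these had a 0 somewhere. Another 60 circRNAs met the same ratio without any 0, and 3 met it with a 0 in all late libraries. The difference between perinatal and late is therefore what chose the members and is given below without a test.

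The tissue was whole retina of C57BL/6 mice, with no treatment or genetic change named in the labels, taken at 5 ages (E18.5 and P1, then P7, then P14 and P30) in 2 libraries each. RNA depleted of ribosomal RNA was sequenced, which keeps molecules that lack a poly(A) tail. The study states 3 biological replicates at each timepoint, whereas 2 libraries of each age were available here. The labels do not say whether the libraries of an age came from separate animals. The p-values below therefore measure the spread between these libraries, which may be technical in part. One of the E18.5 columns has a number found in none of the labels of that age and is called the unnumbered E18.5 library. Wherever a pair of values is given for an age, replicate 1 comes before the unnumbered library for E18.5, 1 before 2 for P1 and P7, 1 before 3 for P14, and 2 before 3 for P30.

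A circRNA arises when the spliceosome links a donor site to an acceptor lying upstream of it, so that the exons between them close into a ring. Lacking free ends, circRNAs resist exonucleases and tend to outlast the linear RNA of the same gene, and neural tissue is known for accumulating them as neurons mature. Around birth the mouse retina still contains many dividing progenitors and newborn neurons, after the first postnatal week the birth of neurons has largely ended, and photoreceptors and synapses mature over the weeks that follow.

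The names in the table were either database IDs or a chromosome, a pair of positions and a strand in build mm9. No name was paired with a gene, no annotation of that build was used, and the circRNAs are therefore described by position, with starts counted from 1. For the same reason the labelled tissue could not be checked against marker genes.

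The members together took 11.2% and 11.7% of all circRNA counts on E18.5, 10.5% and 10.02% on P1, 6.38% and 6.54% on P7, 2.68% and 2.98% on P14, and 2.44% and 2.32% on P30. The mean share was 11.4% ± 0.303 (SD, n = 2) on E18.5, 10.3% ± 0.345 (SD, n = 2) on P1, 6.46% ± 0.113 (SD, n = 2) on P7, 2.83% ± 0.215 (SD, n = 2) on P14 and 2.38% ± 0.0827 (SD, n = 2) on P30. The P7 libraries thus lay between the perinatal and the late libraries without overlap. The summed CPM at P7 was 0.595 of the perinatal mean and the late one 0.240.

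Unscaled, the difference was much smaller. Their summed counts were 741.5 and 830.5 on E18.5, 955 and 861.5 on P1, 613 and 485.5 on P7, 315 and 508 on P14, and 686 and 666 on P30. The late mean was 0.642 of the perinatal mean in counts, and the P30 mean was 0.798 of it. Over the same ages the total of all circRNA counts went from 6606.5 and 7127 (E18.5) to 28104.5 and 28658 (P30), and the late mean total was 2.72 times the perinatal mean total. The table holds circRNA counts only, and how much of the difference in totals was read depth and how much was circRNA amount cannot be told apart.

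**Figure D1:**
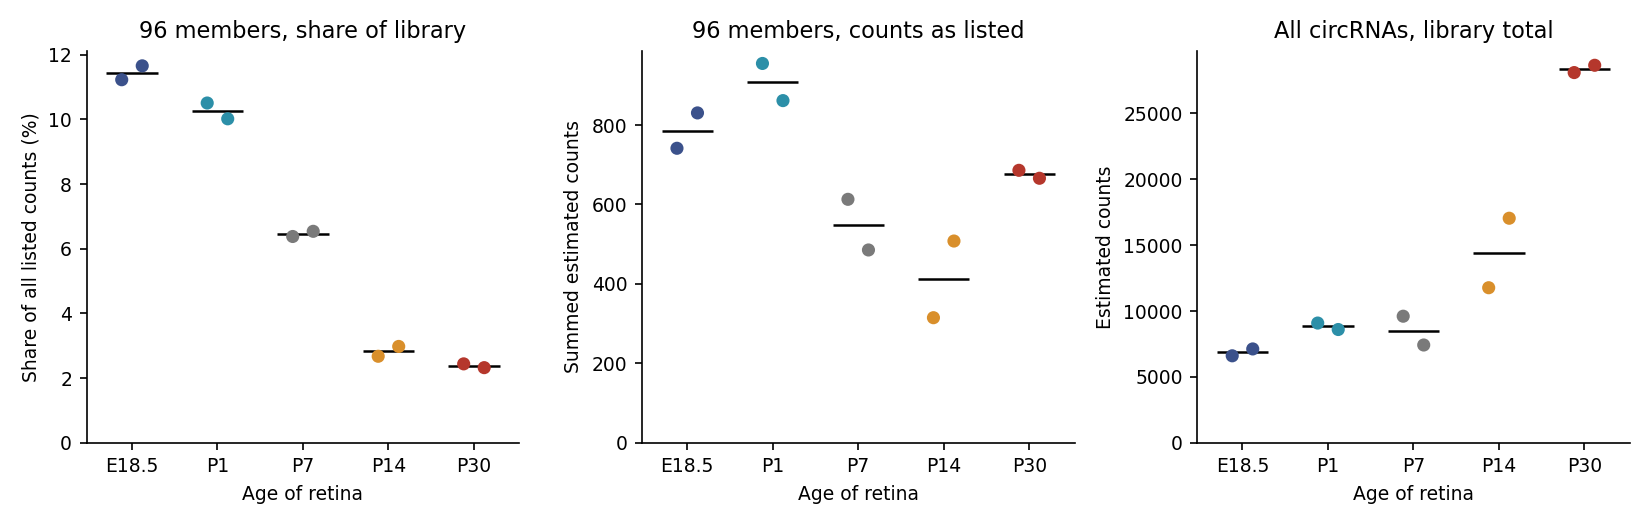
The left panel plots the share of all listed counts held by the 96 members (%), the middle panel their summed estimated counts, and the right panel the total of all circRNA counts, by age of the retina. Each point is 1 library, and the line is the mean of the 2 libraries of an age. The mean share went from 11.4% at E18.5 to 2.38% at P30, whereas the summed counts at P30 (686 and 666) lay not far below those at E18.5 (741.5 and 830.5) while the totals were higher.

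The size of the difference therefore depended on the scale. In CPM the perinatal over late ratio ran from 2.01 to 48.1 with a median of 3.59, the lower bound being the rule itself. In counts as listed it ran from 0.593 to 17.5 with a median of 1.28, at 2 or more in 31 members, from 1 to 2 in 38 and under 1 in 27. With the effective library sizes of TMM, a scaling that compares the more abundant circRNAs with one another, the median was 2.18, and 53 members stayed at 2 or more and none was below 1. The 493 circRNAs that reached the floor and were above 0 at both stages also depended on the scale. Their median log2 ratio of perinatal over late was 0.25 in CPM, −0.45 under TMM and −1.15 in counts, beside 1.85, 1.12 and 0.36 for the members. On each of these scales every member lay above that median of the 493, which the rule favours.

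**Figure D2:**
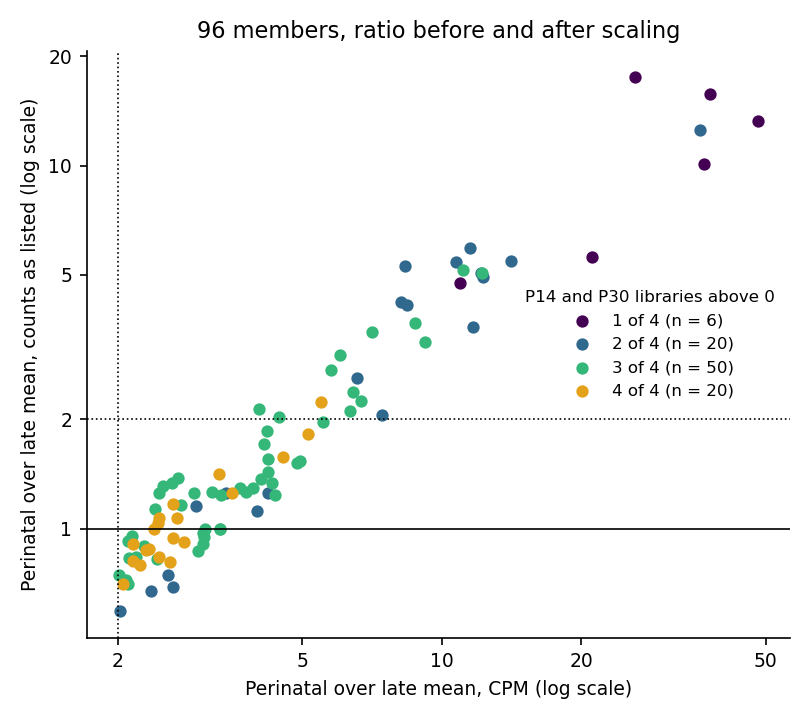
Each point is 1 of the 96 members. The x axis gives the perinatal over late ratio of mean CPM and the y axis that of mean counts as listed, both on log scales. The colour gives in how many of the 4 late libraries the member was above 0, and dotted lines mark a ratio of 2. The members with the highest ratios on both axes were mostly those listed in only 1 or 2 late libraries, and 27 members lie below a counts ratio of 1.

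Persistence was uneven among the late libraries. Of the 96 members, 20 were above 0 in all 4 late libraries, 50 in 3, 20 in 2 and 6 in only 1. The number of members at 0 was 14 and 13 on E18.5, 6 and 3 on P1, 15 and 31 on P7, 41 and 24 on P14, and 19 and 24 on P30. No value between 0 and 2 counts occurs in the table, so a 0 stands for a value under that minimum or for a circRNA that was not called. A count of 2 was worth 303 CPM in the smallest library, E18.5 replicate 1, and 69.8 CPM in P30 replicate 3, so that a low level could be listed at P30 and not at E18.5.

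At P14, 45 members were at 0 in 1 library and above 0 in the other, and in 6 of these the other library held 10 or more counts. At P7 this held for 38 members, 4 of them with 10 or more counts. The libraries with more zeros at these ages, P14 replicate 1 and P7 replicate 2, were also those with the smaller totals, 11773.5 against 17048 and 7426 against 9611. The part that depth plays in the zeros was not tested. In 61 members no perinatal library was at 0, and in 35 the zeros were confined to P14 and P30. In 11 they were confined to P7 and in 7 to the perinatal libraries.

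The members with the highest perinatal level differed widely in what remained late. The circRNA of chr3:141519313-141543480 on the minus strand led, with a perinatal mean of 3217 CPM ± 641 (SD, n = 4). Its counts were 26.5 and 23 on E18.5, 29 and 21 on P1, 11 and 0 on P7, 7 and 10 on P14, and 15 and 22.5 on P30. It was already low at P7, where the 0 in replicate 2 made it a member, and was listed in all late libraries, at 625 CPM ± 110 (SD, n = 4). Although all late libraries were below all perinatal ones in CPM, P30 replicate 3 with 22.5 counts exceeded P1 replicate 2 with 21.

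The most nearly lost members of this group were mmu_circ_0000713 and the circRNA of chr3:26032164-26032974 on the minus strand. Counts of mmu_circ_0000713 were 9.5 and 27 on E18.5, 22 and 29.5 on P1, 7.5 and 17 on P7, 0 and 2.5 on P14, and 4.5 and 0 on P30. Its late mean was 76.7 CPM ± 88.7 (SD, n = 4) against 2769 ± 1060 (SD, n = 4) around birth, a ratio of 36.1 in CPM and 12.6 in counts. For the chr3 circRNA, a span of only 811 bases, the only late count was 4 in P14 replicate 1, after 12 to 24 counts in each perinatal library and 20 and 25 on P7. It thus held its level through the first postnatal week and was listed at 0 in 3 of 4 late libraries.

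Others of the 12 most abundant members kept a sizeable late level. The highest late mean of all members was that of mmu_circ_0000028, with 1066 CPM ± 276 (SD, n = 4). Its counts were 20.5 and 14 on E18.5, 24 and 18 on P1, 0 and 11.5 on P7, 17 and 14.5 on P14, and 24.5 and 31.5 on P30. The late libraries all held it, and it became a member through the 0 in P7 replicate 1. In counts its perinatal mean was 0.874 of its late mean, so its direction depended on the scaling.

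In mmu_circ_0001239 the P14 mean was above that of P7, and its own lowest mean came at P30. Its counts were 10.5 and 22 on E18.5, 7 and 18.5 on P1, 6 and 8.5 on P7, 20 and 14.5 on P14, and 7.5 and 0 on P30. Its P14 mean of 1275 CPM ± 600 (SD, n = 2) lay within the perinatal range, and its P30 mean was 133 CPM ± 189 (SD, n = 2). In contrast, mmu_circ_0001058 was low from P7 onwards. Its counts were 13.5 and 19 on E18.5, 22.5 and 10.5 on P1, 6 and 2 on P7, 0 and 9 on P14, and 4 and 7 on P30, and its late mean was 229 CPM ± 223 (SD, n = 4).

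Of the remaining members among the 12 most abundant, mmu_circ_0000281 averaged 2229 CPM ± 778 (SD, n = 4) around birth and 346 ± 293 (SD, n = 4) late, and mmu_circ_0001368 averaged 2223 ± 1170 (SD, n = 4) and 254 ± 173 (SD, n = 4). Both were at 0 in 1 late library each, and in neither did a late library reach a perinatal one in CPM. Over all 96 members, every late library was below every perinatal library in 39 members in CPM, beside 15.5% of the 587 circRNAs at the floor, and in 11 members in counts, beside 3.92% of the 587. The rule favours both counts, and nothing is read from them.

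**Figure D3:**
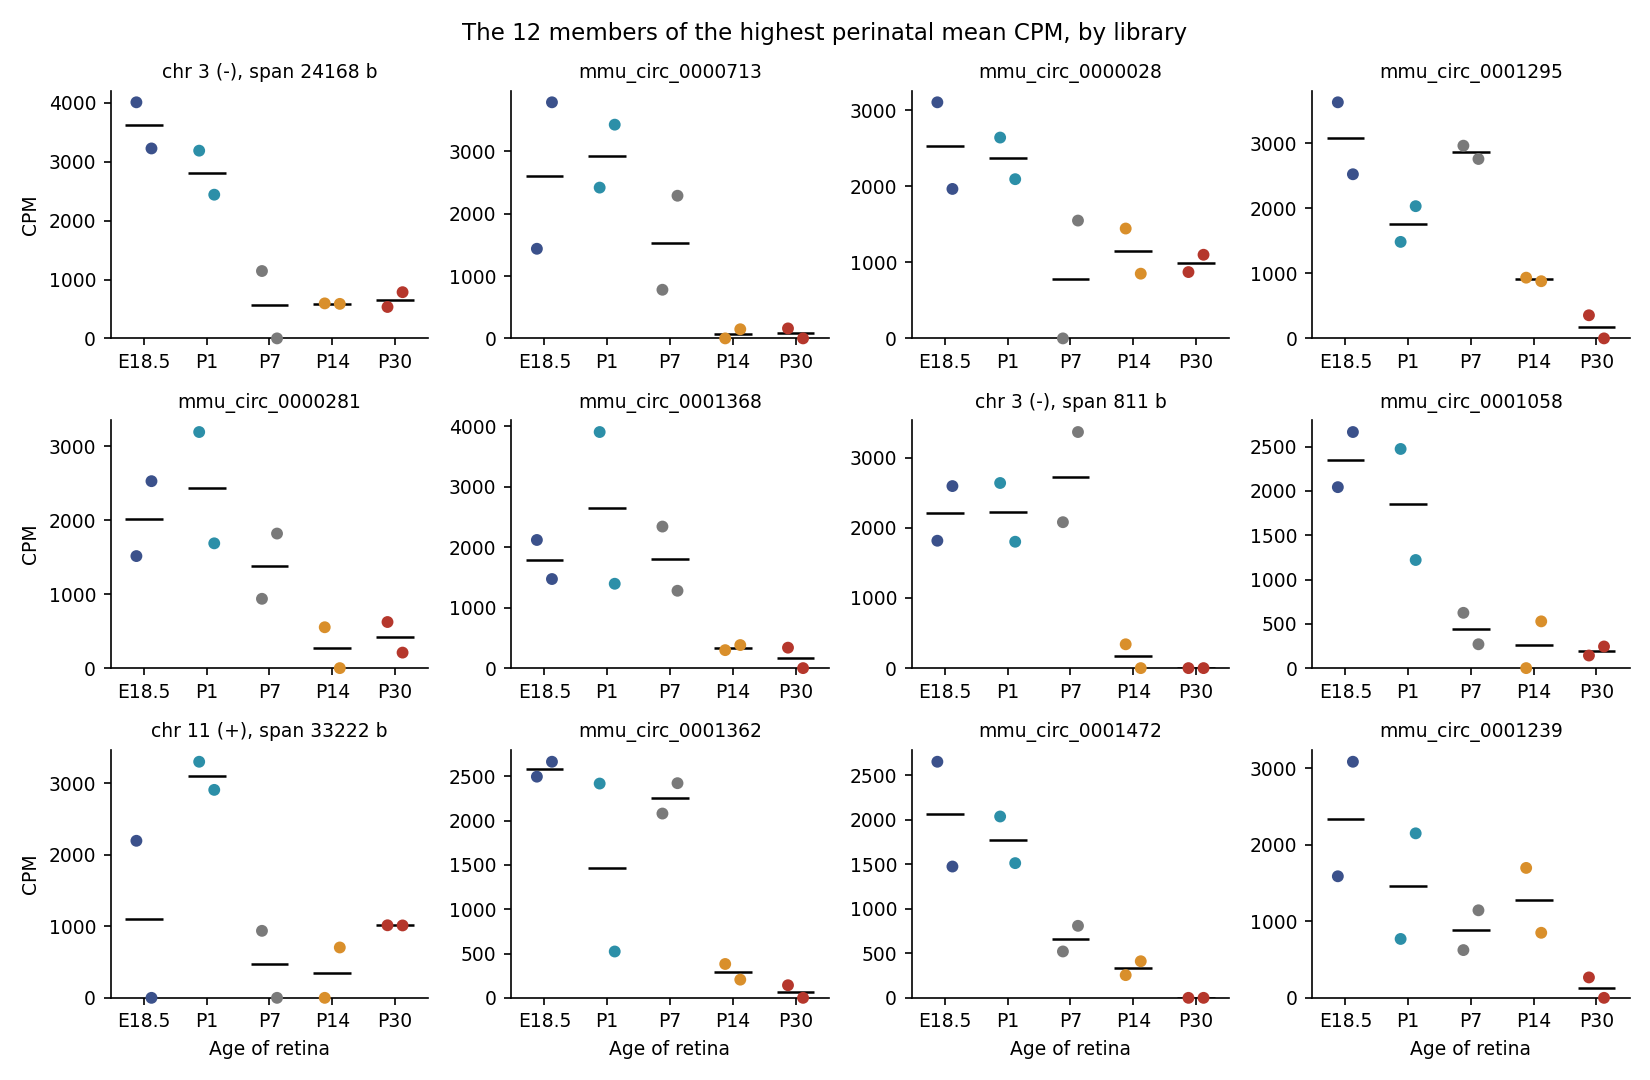
CPM in each library of the 12 members with the highest perinatal mean, by age of the retina, with 1 panel per circRNA and its own y axis from 0. Each point is 1 library and the line the mean of the 2 libraries of an age. The circRNA of chr3 with a span of 811 b, mmu_circ_0001295 and mmu_circ_0001362 were still high at P7, whereas mmu_circ_0001058 and the chr3 circRNA with a span of 24168 b were already low.

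At P7 the members did not move as a block. The P7 mean was at or above the perinatal mean in 19 members, between the late and the perinatal mean in 59, and below the late mean in 18. The ratio of P7 to perinatal mean CPM ran from 0 to 1.86 with a median of 0.561, and 52 members, 54.2%, kept 0.5 or more. Among the 496 circRNAs that reached the floor and were above 0 around birth, 77.8% kept 0.5 or more and the median was 0.949. A high perinatal level helped to choose the members, and the 0 that the rule asks for may lie at P7. A lower P7 value is therefore favoured by the choice, and nothing is read from that difference. Both P7 libraries were above all late libraries in 37 members, beside 22.1% of the 587 circRNAs at the floor, and below all perinatal libraries in 22, beside 8.01% of the 587. The rule used the perinatal and the late values and, through the 0 it asks for, single P7 values, so nothing is read from these counts.

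**Figure D4:**
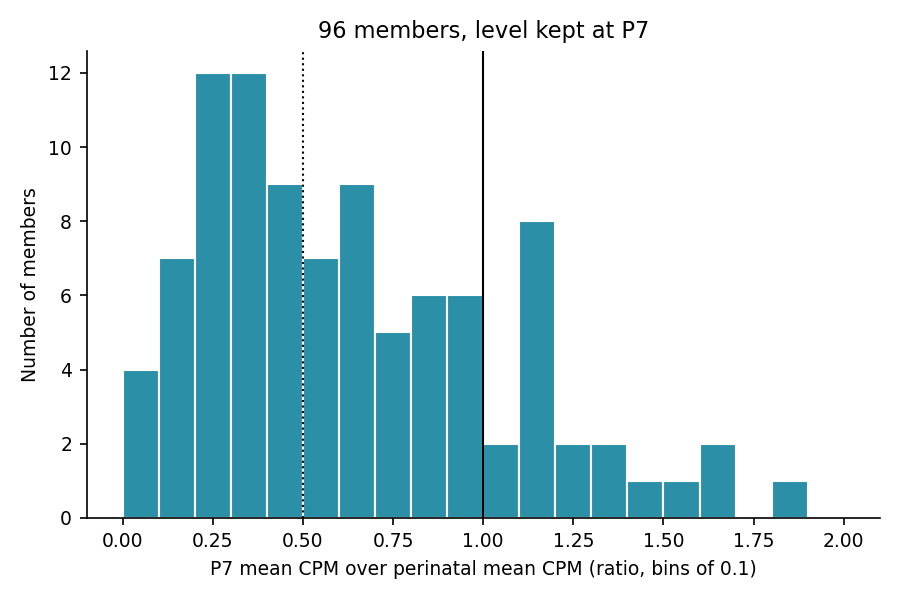
Histogram of the 96 members by the ratio of P7 mean CPM to perinatal mean CPM, in bins of 0.1. The dotted line marks 0.5 and the solid line 1. Members spread from 0 to 1.86, with 44 below 0.5, 52 at or above it, and 19 at 1 or above.

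Among the 31 members with a perinatal mean of 10 or more counts, the highest P7 ratio was that of mmu_circ_0000698, at 1.86. Its counts were 14 and 15.5 on E18.5, 0 and 11 on P1, 22 and 21.5 on P7, 6 and 7 on P14, and 9.5 and 21.5 on P30. Both P7 libraries were above every other library in CPM. In counts, P30 replicate 3 matched P7 replicate 2 at 21.5.

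The next highest P7 ratios were 1.23 for the chr3 circRNA of 811 bases, 1.18 for mmu_circ_0001295 and 1.11 for mmu_circ_0001362. For mmu_circ_0001295, counts were 24 and 18 on E18.5, 13.5 and 17.5 on P1, 28.5 and 20.5 on P7, 11 and 15 on P14, and 10 and 0 on P30. For mmu_circ_0001362 they were 16.5 and 19 on E18.5, 22 and 4.5 on P1, 20 and 18 on P7, 4.5 and 3.5 on P14, and 4 and 0 on P30. In both, every late library lay below both P7 libraries in counts as well as in CPM, although the late totals were larger.

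Among the same 31 members, the lowest P7 ratios belonged to the circRNA of chr6:83352661-83354818 on the minus strand, at 0.133, the leading circRNA of chr3:141519313-141543480, at 0.178, and those of chr6:65805943-65851853 and chr8:107702493-107726478 on the plus strand, at 0.184 and 0.201. The circRNA of chr6:83352661-83354818 and the leading one were at 0 in P7 libraries only, so the rule itself favoured their low P7 values. The first of these was lowest at P7 and higher again later. Its counts were 10 and 21.5 on E18.5, 7.5 and 6 on P1, 0 and 3 on P7, 6.5 and 16 on P14, and 15 and 26.5 on P30. Its late mean of 737 CPM ± 225 (SD, n = 4) was 1 of the 4 highest, and in counts its perinatal mean was 0.703 of the late mean.

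The other pair was low from P7 on. The circRNA of chr6:65805943-65851853 had 4.5 and 12 counts on E18.5, 4 and 20 on P1, 0 and 3.5 on P7, 0 and 0 on P14, and 0 and 4 on P30. That of chr8:107702493-107726478 had 11 and 12 counts on E18.5, 20 and 10 on P1, 0 and 5 on P7, 0 and 0 on P14, and 0 and 4 on P30. Both persisted as 4 counts in P30 replicate 3 alone, at 139.6 CPM, and the latter gave the highest perinatal over late ratio of all members, 48.1.

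Across all circRNAs, the P7 values were also compared with both sides by edgeR's quasi-likelihood test. For the members this is a description, because the rule used the perinatal and the late values and, through the 0 it asks for, single P7 values. After the filter on low counts, 327 circRNAs were tested, among them 58 of the 96 members. The 38 others were too low for the filter. Against the perinatal mean, 30 of the 327 circRNAs, 9.17%, differed at P7 at an adjusted p under 0.05, and no member was among them. At an unadjusted p under 0.05 there were 66 of the 327 circRNAs, 20.2%, and 4 of the 58 members, 6.90%. DESeq2 called 38 circRNAs, 1 of them a member. Between P7 and the late mean, 5.81% of the 327 were called lower late, and 7 of the 58 members, 12.1%, were, a share from which nothing is read. These were the chr3 circRNA of 811 bases, mmu_circ_0000713, mmu_circ_0000970, mmu_circ_0001295, mmu_circ_0001333, mmu_circ_0001362 and mmu_circ_0001472. DESeq2 called 70 circRNAs in either direction, 10 of them members, all lower late. By edgeR with column totals, 58 circRNAs were called in either direction, 12 of them members, all lower late. Without P7 replicate 2, 1 member was called lower late, the chr3 circRNA of 811 bases, and 1 was called higher, mmu_circ_0000028, which is at 0 in P7 replicate 1. The fit with a replicate block used fewer libraries and more coefficients, and nothing is read from its lack of member calls.

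The rule did not use the difference between the E18.5 and P1 means, which was therefore tested. The 0 it asks for can lie in a library of either age, however. At E18.5, 25 members were at 0 in 1 library only, and at P1, 9 were. The shares of members below are thus not free of the choice. Both P1 libraries were above both E18.5 libraries in CPM in 18 members, 18.8%, beside 17.5% of all 587 circRNAs at the floor. They were below in 25 members, 26.0%, beside 14.5% of the 587, and the libraries of these ages overlapped in 53 members. These shares were not tested. In edgeR's test 0% of the 327 circRNAs were called, and so 0 of the 58 members were called. At an unadjusted p under 0.05 there were 27 of the 327 circRNAs, 8.26%, and 0 members. By DESeq2 0 members were called. With the floor of 40 counts as the only filter, which kept all 96 members, 2 members, 2.08%, and 43 of the 587 circRNAs, 7.33%, reached an unadjusted p under 0.05.

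The smallest p among members belonged to the circRNAs of chr8:108602504-108603641 on the plus strand and chr1:38591751-38593791 on the minus strand. The first had 2 and 2.5 counts on E18.5 and 12 and 13.5 on P1, followed by 8.5 and 10 on P7, 5 and 13.5 on P14, and 0 and 4 on P30. Its log2 difference of P1 over E18.5 was 2.42 ± 1.16 (SE), with an adjusted p of 0.628 by edgeR. The second had 2.5 and 5.5 counts on E18.5, 26.5 and 18.5 on P1, 8.5 and 12 on P7, 0 and 6 on P14, and 4.5 and 0 on P30, a log2 difference of 2.20 ± 1.06 (SE) with an adjusted p of 0.628 by edgeR. In both, the P1 libraries lay above both E18.5 libraries in counts and CPM, and neither passed the adjusted threshold.

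The rule did not use the difference between the P14 and P30 means either. The 0 it asks for can lie at either age, however. In 35 members the zeros were confined to P14 and P30, so the shares of members below are not free of the choice. Both P30 libraries were above both P14 libraries in CPM in 15 members, 15.6%, beside 21% of the 587, and below in 24 members, 25%, beside 28.6% of the 587. In 57 members the ages overlapped. The mean CPM was higher at P30 in 45 members and the mean count in 59, so a direction over the members again depended on the scale. The summed CPM of the members at P30 was 0.843 of that at P14, and their summed counts were 1.64 times those at P14, while the totals of all circRNAs were 1.97 times.

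In edgeR's test 9 of 327 circRNAs, 2.75%, differed between P30 and P14, and 0 of the 58 members did. At an unadjusted p under 0.05 there were 44 of the 327 circRNAs, 13.5%, and 9 of the 58 members, 15.5%. With the floor of 40 counts as the only filter, 14 of the 96 members, 14.6%, and 57 of the 587 circRNAs, 9.71%, reached an unadjusted p under 0.05. Fitted alone, the P14 and P30 libraries let 484 circRNAs through the filter on low counts, only 20 of them members. Many of the 58 thus passed it through the other ages, and the rule chose members for high perinatal values. Nothing is read from these shares of members. DESeq2 called 15 circRNAs, 4 of them members. With totals of the tested circRNAs instead of TMM, 12 circRNAs were called, and with column totals 8. The same 2 members were among them each time. These were mmu_circ_0001333 and mmu_circ_0001472, the members closest to the threshold.

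Counts of mmu_circ_0001333 were 17 and 12 on E18.5, 9.5 and 10 on P1, 8.5 and 5 on P7, 4.5 and 7 on P14, and 0 and 0 on P30. Those of mmu_circ_0001472 were 17.5 and 10.5 on E18.5, 18.5 and 13 on P1, 5 and 6 on P7, 3 and 7 on P14, and 0 and 0 on P30. Each was listed in both P14 libraries and in neither P30 library, although the P30 totals were the largest, and the mean CPM of each was lower at every age than at the one before. Their only zeros were at P30, so each became a member through values that this contrast compares. By edgeR the adjusted p of P30 against P14 was 0.0658 for mmu_circ_0001333 and 0.0725 for mmu_circ_0001472. By DESeq2 it was 0.0194 and 0.0261. In edgeR, leaving out single libraries moved the adjusted p up to 0.407 and 0.424, and with a replicate block it was 0.640 and 0.563. When only the P14 and P30 libraries were fitted, neither circRNA passed the filter on low counts, so that they were tested only through the ages at which they were higher.

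DESeq2 also called the circRNAs of chr3:84707423-84708001 on the plus strand and of chr3:132725530-132747989 on the minus strand, which are named here after their values were seen. The former was the only other member above 0 in both P14 libraries and at 0 in both P30 libraries, with 6.5 and 2 counts on P14. The latter went the other way. It had 9 and 10.5 counts on E18.5, 5 and 4.5 on P1, 0 and 3.5 on P7, 0 and 0 on P14, and 28.5 and 13.5 on P30, and by edgeR its adjusted p of P30 against P14 was 0.101.

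It was 1 of 7 members at 0 in both P14 libraries and above 0 in both P30 libraries. The 0 that the rule asks for favours this pattern. No share over all circRNAs is given beside the 7, and nothing is read from that count. The chr19 circRNA at 57703575-57731732 on the plus strand was of the same kind and was named after its values were seen. It had 7 and 6.5 counts on E18.5, 13 and 6.5 on P1, none at P7 or P14, and 14.5 and 15 on P30. In both of these, each P30 library held more counts than any perinatal library. In the smaller P14 libraries 2 counts were worth 170 and 117 CPM, against 71.2 and 69.8 CPM at P30, and the part of this difference in the zeros at P14 was not tested.

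Just inside the ratio of 2 lay mmu_circ_0000470, at 2.01, and the circRNA of chr11:108295440-108392779 on the plus strand, at 2.02. In counts their perinatal means were 0.745 and 0.593 of the late means. Just outside lay the circRNAs of chr17:42982275-42989477 and chr1:84772892-84790902, both on the minus strand, with ratios of 1.999 and 1.99. The one on chr17 had 10 and 21.5 counts on E18.5, 11 and 0 on P1, 18.5 and 13 on P7, 9 and 15.5 on P14, and 16.5 and 17.5 on P30, much like members inside.

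The rule did not use the position of a circRNA. Of the members, 50 were under a database ID, 52.1% beside 48.0% of the 587, and 46 carried coordinates. The spans of these 46 from back-splice acceptor to donor ran from 552 to 97340 bases with a median of 12959, beside a median of 11666 over the 305 circRNAs with coordinates at the floor. Spans under 1 kb made up 13.0% of them beside 6.89%, and 2 of the 46 reached 50 kb beside 23 of the 305. They lay on 17 chromosomes, with 26 on the plus and 20 on the minus strand, and none on the X chromosome, which held 8 of the 305. These are counts of features without a test.

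A locus often gives several circRNAs that share 1 back-splice site and differ at the other. Of the 46 members, 35 shared a start or an end with another listed circRNA of the same strand, 76.1% beside 79.0% of the 305. A partner that itself reached the floor was found for 9, 19.6% beside 27.9%. These 9 had 12 such partners, 2 of them members. Of the 10 others, 1 had a perinatal mean at least 2 times its late mean and 5 had a late mean above the perinatal mean, so their courses were mixed. The 10 leave out the partners that the rule chose, and no share over all circRNAs is set beside them. Nothing is read from these counts.

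The chr11 locus on the plus strand held the pair of members that share an end, at 108392779. The shorter, from 108359558, had 14.5 and 0 counts on E18.5, 30 and 25 on P1, 9 and 0 on P7, 0 and 12 on P14, and 28.5 and 29 on P30. The longer, from 108295440, had 0 and 4 counts on E18.5, 6 and 6 on P1, none at P7 or P14, and 12 and 15 on P30. Both were listed in both P1 and both P30 libraries and missing from at least 2 of the 4 libraries between.

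Their partners differed from them and from each other. The circRNA of chr11:108295440-108301910 shares the start of the longer member and was by far the most abundant, with a mean of 8723 CPM around birth, 3624 at P7 and 2069 late. It was above 0 in every library, which kept it out of the members. The circRNA of chr11:108379993-108392779 shares the end and had means of 1463 CPM around birth, 1541 at P7 and 902 late. A further one with that end, from 108364380, was at 0 in all 4 perinatal libraries, had 4 and 19.5 counts on P7, and had 2.5 to 7.5 counts in the late libraries.

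**Figure D5:**
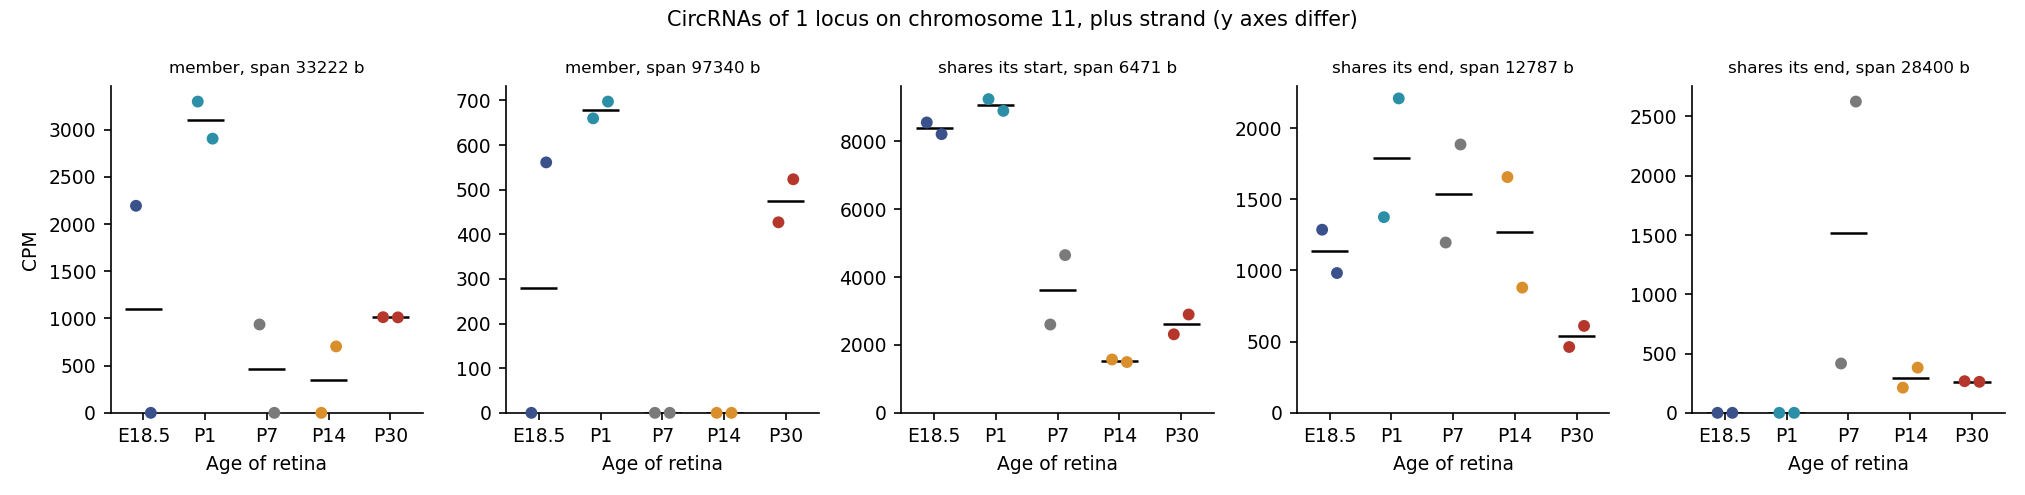
CPM in each library, by age of the retina, of 5 circRNAs of 1 chr11 locus on the plus strand. The first and second panels are members that end at the same base, and the others share the start or the end of the longer member. Each point is 1 library and the line the mean of an age, and the y axes differ. The 3 circRNAs with the end but another start had unlike courses, and the 1 that is at 0 around birth had its highest mean at P7.

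Partners that ran the other way were found at more loci, which are named here after their values were seen. On chr19, the member at 29828090-29829507 on the minus strand went from 852 CPM around birth to 142 CPM late, whereas the circRNA from the same start to 29860939 went from 275 to 840 CPM. On chr6, the member at 35027981-35030226 on the minus strand went from 862 to 354 CPM, and the circRNA from 35001062 to the same end went from 266 to 569 CPM. The member's values are those the rule chose, and only the partner's values are free of it.

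The 60 circRNAs that met the ratio but stood at 0 in no library were the abundant counterpart. Their median summed count was 167.8, beside 60.2 for the 96 members, and their median perinatal over late ratio was 2.88 in CPM and 1.09 in counts, beside 3.59 and 1.28. At P7 their median ratio to the perinatal mean was 0.782, and 52 of the 60 kept 0.5 or more, beside 52 of the 96 members. What set the members apart by rule was the 0, and their lower counts go with it. That 0 lay in 1 P7 library in 38 members and in both in 4, whereas the 60 could have none. The lower P7 ratio of the members is therefore favoured by the rule, and nothing is read from it.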

How the data were processed

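Total RNA of mouse retina, taken with Trizol and depleted of ribosomal RNA, was sequenced at 5 ages with 2 libraries each. The authors deposited an estimated count per circRNA and library, without normalization. All values are multiples of 0.5, and none lies between 0 and 2. The submitters' processing notes name Trimmomatic and mm9. For the circRNA caller, the aligner and the origin of the fractions, the sources used here give nothing. Age and number in a column's name set its library, and 0 columns were left unmatched. The second E18.5 column, whose number is on none of the labels of that age, was used as an unnumbered replicate. Library totals ran from 6606.5 to 28658 counts. Intervals of these few counts would cover counting error only.

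The membership rule, the lists and the tests were chosen with earlier results of these data known. CPM used column totals over all circRNAs. For tests in edgeR 4.0.16 (R 4.3.3; glmQLFit, glmQLFTest), counts were rounded, low ones were removed by filterByExpr with the ages as groups, TMM factors were applied, and 1 model with a coefficient for each age was fitted to the 10 libraries (common dispersion 0.125). The p-values were Benjamini-Hochberg adjusted over 327 circRNAs at a threshold of 0.05. The SE printed with a log2 difference was derived from the test, as the absolute log2 difference over the square root of its F statistic. The test was also run on simulated data with known changes, the outcome of which is not printed here and is not used. Alternatives were DESeq2 1.42.0, other scalings and filters, unrounded values, only the ages compared, a replicate block and each library left out. No fold is printed for a group at 0. The named circRNAs were the 12 members highest around birth, the 4 highest and 4 lowest in P7 ratio with at least 10 perinatal counts, the 2 with the smallest p in each tested step, the 4 highest late, the 2 nearest on each side of the ratio of 2, and the most abundant circRNA sharing a splice site with a named member. Starts were taken as 0-based, since 220 of 1156 spans then equalled the length of an internal exon of the GRCm38 annotation (lengths only), against 54 to 77 at other offsets, and are printed 1 higher. Python 3.11.15, numpy 2.4.6, pandas 2.3.3 and matplotlib 3.10.9 were used.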

Additional observations from a re-analysis of the deposited data

How the results depend on the processing

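The number of members, 96, was 53 with TMM effective library sizes, 31 in counts as listed, 44 at a ratio of 4, 218 and 26 at floors of 20 and 80 counts, and 65 to 85 without single libraries. Members keeping 0.5 of the perinatal mean at P7 (52) became 34 at a limit of 0.75 and 49 to 56 without single libraries. The summed P7 over perinatal ratio of 0.595 became 0.608 without the most abundant member, 0.616 with TMM, 0.648 in counts and 0.580 to 0.610 without single libraries. The late ratio of 0.240 became 0.387 and 0.642 with TMM and in counts, and 0.229 to 0.249 without single libraries. The 35 members sharing a splice site became 9 with partners at the floor.

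Calls of P1 against E18.5 (0) were 6 without a filter and 0 to 2 without single libraries (1 without the unnumbered E18.5 library, 2 without P1 replicate 2), and calls among members were 0 throughout. Calls of P30 against P14 (9) were 15 with DESeq2, 4 without a filter, 0 with the floor of 40 counts, 2 with only these ages and 0 to 11 without single libraries. They were 1 without P1 replicate 1 or P14 replicate 1, and 0 without P7 replicate 2, P14 replicate 3 or either P30 library. Members called there (0) were 2 with totals of the tested circRNAs, 2 with column totals, 4 with DESeq2 and 0 to 1 without single libraries (1 without P7 replicate 1). Over all circRNAs, 12 were called there with totals of the tested circRNAs and 8 with column totals. With totals of the tested circRNAs and with column totals, the adjusted p by edgeR was 0.0440 and 0.0445 for mmu_circ_0001333 and 0.0468 and 0.0470 for mmu_circ_0001472. Calls of P7 against the perinatal mean (30) were 1 with only these ages and 20 to 46 without single libraries (46 without E18.5 replicate 1), and members called (0) were 1 with DESeq2 and 0 to 1 without single libraries. Calls of the late mean against P7 (58) were 30 with the floor of 40 counts and 15 to 79 without single libraries, low where a P7, P14 or P30 library was left out. Members called there (7) were 12 with column totals, 4 with the floor of 40 counts, 4 with only these ages and 2 to 10 without single libraries. They were 4 without E18.5 replicate 1, 3 without P7 replicate 1, P14 replicate 3 or P30 replicate 3, and 2 without P7 replicate 2, of which 1 was lower and 1 higher late.

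With the replicate block over the numbered columns, calls were 0 for P30 against P14, 8 for P7 against the perinatal mean and 3 for the late mean against P7, with 0 members. Same-numbered P1 and P7 libraries deviated together with a correlation of only 0.0173. At these low counts, and with the other ages not compared, this cannot decide whether the numbers mark a pairing. With an age left at 1 library, that library was assumed to vary like the others. The replicate block was fitted to fewer libraries with more coefficients. Its fewer calls and higher p-values therefore cannot be told apart from a loss of power. The median member summed to 60.2 counts over the 10 libraries, which limits the precision of each value.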

Other observations

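At some loci, named here after their values were seen, the neighbours of a member had a lower late level too. The other listed circRNAs that overlap a member on the same strand and sum to 40 or more counts were added up for 12 members. On chr10, around the member at 91572384-91599435 on the minus strand, the 3 others went from 1285 CPM around birth to 22.2 CPM late and were at 0 at P7, while the member went from 903 to 586 to 77.3 CPM. On chr4, around the member at 149780305-149813577 on the plus strand, the 7 others went from 857 to 1016 to 88.1 CPM and the member from 1218 to 1397 to 289 CPM, so that both kept their level at P7.

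Over the 12 members the perinatal sum of the overlapping circRNAs was 2 or more times the late sum in 4 and 1 to 2 times in 5, and the late sum was higher in 3. The median perinatal over late ratio of these sums was 1.57, beside 0.389 over the 124 circRNAs at the floor with such neighbours, of which 69.4% had higher late sums. The member's share of all counts of its overlapping group had a median of 46.2% around birth, 20.1% at P7 and 27.2% late, and was lower late in 9 of 12. The member's own values were part of the rule, and neighbours at 1 locus share bases, so these are descriptions without a test.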
